A study of Mus musculus with 6 samples.

Results

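Naive pluripotency is the state of the mouse epiblast before implantation, and mouse embryonic stem cells (ESCs) hold it in culture while signals such as leukaemia inhibitory factor (LIF) sustain a network of transcription factors. Members of this network bind each other's regulatory regions and keep each other active. Once the signals are withdrawn the network is taken down, and cells pass through a formative state before they commit to a lineage. The 9 genes described here, Nanog, Esrrb, Tfcp2l1, Tbx3, Nr5a2, Nr0b1, Zfp42, Prdm14, and Fbxo15, were chosen by symbol as genes of this network, out of 52636 genes in the deposited count table. Fbxo15 encodes an F-box protein, a substrate adaptor of ubiquitin ligases, and is a marker of the state and not a transcription factor. The other members act on transcription.

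RNA was sequenced from embryoid bodies (EBs), aggregates in which ESCs differentiate, and all samples were taken on day 3 of differentiation. WT EBs came from the parental mouse ESC line E14 (3 samples). Tnfaip2-/- EBs came from a single E14 clone in which genome editing had introduced a premature stop codon into Tnfaip2, a gene induced by tumour necrosis factor (3 samples). Totals ranged from 21765931 to 23804489 counts per sample. Each genotype is represented by 1 line, so the p-values measure only the spread between these samples, and other differences between the clone and its parent cannot be told apart from the genotype. Undifferentiated ESCs were not analysed here, and whether a factor was kept or lost is therefore read only as its level on day 3 relative to WT.

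Reads of the edited gene were few: 7, 4, and 7 in the WT samples against 0, 2, and 2 in the Tnfaip2-/- samples. The Tnfaip2-/- samples were all lower than the WT samples, and no sample was high. Over each group, 18 counts stood against 4, a ratio of 4.3 per total counts with an exact 95% counting interval of 1.42 to 17.5. A fit without the expression filter gave a log2 fold change of -2.05 (adjusted p = 0.0133 in edgeR's quasi-likelihood test). The call was lost with DESeq2, with an adjusted p of 0.0933, and without WT replicate 1, WT replicate 3, or Tnfaip2-/- replicate 1, with adjusted p of 0.0577, 0.0594, and 0.0708.

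The label of the samples was checked against markers. Pou5f1, which encodes OCT4, reached means of 759 CPM (counts scaled to a library of 1000000) in WT EBs and 419 CPM in Tnfaip2-/- EBs, and Sox2 reached 280.4 and 329 CPM, so both groups held pluripotency genes at high levels. The WT EBs also contained RNA of T (Brachyury), the marker of the primitive streak, with 774, 732, and 866 counts. In the Tnfaip2-/- EBs T had 5, 3, and 1 counts. Fibroblast markers were low in every sample, with a summed level over 7 genes of 8.64, 9.99, and 8.63 CPM in WT samples against 5.8, 6.29, and 6.85 CPM. Of the 4 tested, Thy1, the most abundant, and Col1a1 were not called (adjusted p = 0.232 and 0.889 in edgeR's test), and 2 were lower. Col1a2 was 2.83-fold lower (adjusted p = 8.39e-07 in edgeR's test), and Col3a1 went from 12, 21, and 12 counts to 1, 1, and 0. Only its WT level kept Col3a1 in the test, so it could be called lower but not higher. Col1a2 would have failed the expression filter on its Tnfaip2-/- counts of 9, 14, and 17, and a lower call was thereby favoured. Lum had 0 or 1 count in each sample.

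All 9 naive factors passed the expression filter and were among the 17849 genes tested. The network did not move as a block. In Tnfaip2-/- EBs 6 factors were higher (Nanog, Tfcp2l1, Nr5a2, Zfp42, Prdm14, and Fbxo15) and 3 were lower (Esrrb, Tbx3, and Nr0b1), each at an adjusted p threshold of 0.05 (quasi-likelihood test of edgeR). Such a call was common in these data: it was made for 67.7% of all genes tested, 34.0% higher and 33.7% lower. The CPM of the groups did not overlap for any of the 9 factors, as for 69.4% of all genes tested. When the null hypothesis was a change of up to 1.5-fold, 15.7% of all genes were called, 9.05% higher and 6.63% lower. This rule called 4 of the 9 factors, Prdm14 and Zfp42 as higher and Nr0b1 and Tbx3 as lower. DESeq2, run without this expression filter, called 1723 genes under this rule in place of 2798, with the same 4 factors. Run on the 17849 genes, it called 1810 genes, 4 factors among them. In such bulk samples, a lower level can come from fewer cells that express a gene or from less RNA per cell, and these cannot be told apart.

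**Figure D1:**
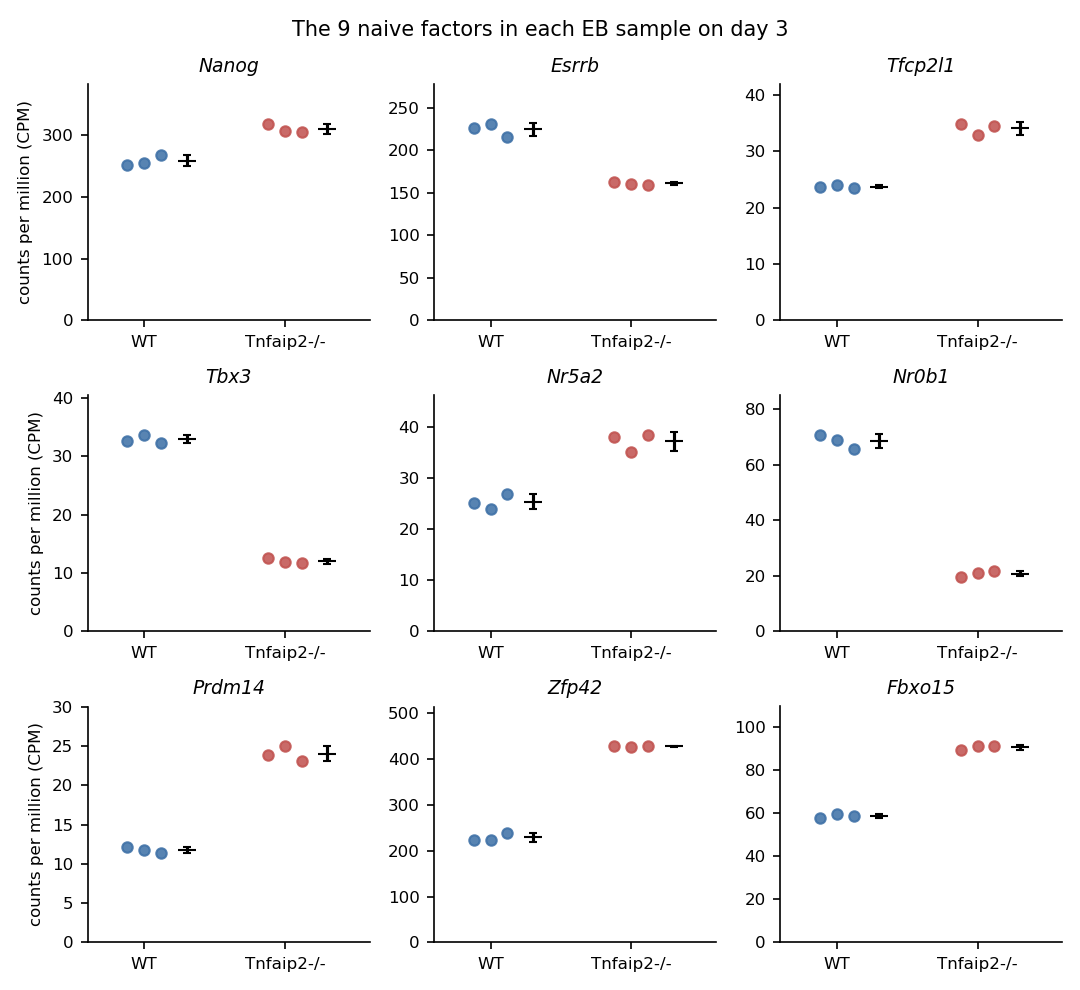
Scaled counts (CPM, y axis from 0) of the 9 naive factors in the 3 WT samples (blue) and 3 Tnfaip2-/- samples (red), with the mean ± SD of each group in black. No factor overlaps between the groups, and Esrrb, Tbx3, and Nr0b1 are the 3 that are lower in Tnfaip2-/- EBs.

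Nanog and Esrrb form the centre of the naive network. NANOG, a homeodomain protein, activates Esrrb, and ESRRB, an orphan nuclear receptor, can sustain self-renewal in place of NANOG. Nanog (ENSMUSG00000012396, chromosome 6, 122707489 to 122714633 in GRCm38) was measured at 251, 255, and 268 CPM in the WT EBs and at 318, 306, and 304 CPM in the Tnfaip2-/- EBs. All Tnfaip2-/- samples were above all WT samples, but by little: the lowest of them was 1.14 times the highest WT sample. The change was 0.26 on the log2 scale (standard error, SE, 0.03, adjusted p = 8.97e-12 in edgeR's quasi-likelihood test), the smallest among the 9 factors. Of all genes tested, 27.8% had a larger rise.

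Esrrb (ENSMUSG00000021255, chromosome 12, 86361117 to 86521628) went the other way. It was at 227, 231, and 216 CPM in the WT EBs and at 163, 161, and 159.9 CPM in the Tnfaip2-/- EBs. The WT samples were the high ones, the Tnfaip2-/- samples lay close together, and the groups did not overlap. Esrrb fell by 0.48 on the log2 scale (SE 0.03, adjusted p = 9.68e-20 in edgeR's quasi-likelihood test), which left it 1.39-fold lower and still among the more abundant genes.

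The ratio of Esrrb to Nanog counts within a sample does not depend on scaling between samples. WT samples gave 0.905, 0.908, and 0.807, and Tnfaip2-/- samples gave 0.513, 0.527, and 0.526. In every WT sample the counts of Esrrb came near those of Nanog, and in every Tnfaip2-/- sample they were far below them. The mean ratio was 0.873 ± 0.0575 (SD, n = 3) in WT EBs and 0.522 ± 0.00788 in Tnfaip2-/- EBs. This restates, within each sample, that Nanog was higher and Esrrb lower, and is not separate evidence.

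Promoters of this pair are shown because their RNA diverged while both are read by OCT4 and SOX2 in ESCs. Promoter windows of 300 bases, 250 before and 50 after an annotated start (RefSeq, GRCm38.p6), were found for 6 of the 9 factors, in 9 windows, since a gene can have several. None is listed for Prdm14, Tbx3, or Fbxo15. Capitals mark exact matches, on either strand, to the searched elements. The Nanog window (chr6:122707239-122707538, forward strand) holds the SOX element ACAATG, 67 bases before the start. Directly before it, with 1 base between, stand the POU letters TTTGCAT, the core of an OCT4 site, which were added to the search after the sequence was seen. The first Esrrb window (chr12:86360867-86361166, forward strand) holds the SOX element on the reverse strand, read as CATTGT, 32 bases after the start.
Nanog: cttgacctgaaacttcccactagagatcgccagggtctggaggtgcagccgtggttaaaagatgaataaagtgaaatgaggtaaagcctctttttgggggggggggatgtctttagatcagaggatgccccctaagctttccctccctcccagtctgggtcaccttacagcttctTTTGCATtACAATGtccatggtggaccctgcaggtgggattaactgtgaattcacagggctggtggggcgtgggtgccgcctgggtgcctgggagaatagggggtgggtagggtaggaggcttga
Esrrb: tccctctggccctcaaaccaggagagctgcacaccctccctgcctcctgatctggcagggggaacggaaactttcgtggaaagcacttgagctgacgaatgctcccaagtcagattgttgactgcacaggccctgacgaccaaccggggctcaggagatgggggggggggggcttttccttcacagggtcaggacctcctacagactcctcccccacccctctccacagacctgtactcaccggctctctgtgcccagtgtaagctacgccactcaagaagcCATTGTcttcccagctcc
Among 32851 promoter windows of this length, 12.6% held ACAATG and 4.63% held TTTGCAT. Both in this arrangement occurred in 2 windows, and these are the overlapping windows of Nanog. The STAT element TTCCNGGAA (1.15% of all windows), the TCF element CTTTGAT (3.73%), and the orphan nuclear receptor element TCAAGGTCA (0.423%) had no exact match in any of the 9 windows. A match is a description of the letters and not of binding.

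Tfcp2l1 and Tbx3 carry signals into the network. Tfcp2l1, a grainyhead-like factor, is a direct target of STAT3 and mediates much of the effect of LIF. Tbx3, a T-box factor, acts downstream of phosphatidylinositol 3-kinase, a further route from the LIF receptor. Tfcp2l1 (ENSMUSG00000026380, chromosome 1, 118627945 to 118685168) was at 23.8, 24.0, and 23.6 CPM in the WT EBs and at 34.9, 32.8, and 34.6 CPM in the Tnfaip2-/- EBs. The WT samples were nearly identical, and each Tnfaip2-/- sample was well above them. The change was 0.52 on the log2 scale (SE 0.05, adjusted p = 1.89e-12 in edgeR's quasi-likelihood test), a 1.44-fold rise.

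Tbx3 (ENSMUSG00000018604, chromosome 5, 119670669 to 119684724) was at 32.7, 33.7, and 32.4 CPM in the WT EBs. In the Tnfaip2-/- EBs it was at 12.5, 11.8, and 11.8 CPM. All Tnfaip2-/- samples were low, and the lowest WT sample was 2.58 times the highest of them. Tbx3 fell by 1.45 on the log2 scale (SE 0.06, adjusted p = 1.03e-25 in edgeR's quasi-likelihood test and 7.31e-18 in the test against 1.5-fold), and 2.24% of all genes tested had a larger fall. The antisense gene Tbx3os1, whose exons cover 1.74% of the exon bases of Tbx3, had at most 4 counts in any sample, so that few reads could come from it.

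The genes of the LIF route were mixed as well. Of 10 listed genes between LIF and STAT3 targets, 7 were higher and 2 were lower, with a median log2 fold change of 0.32 against 0.00 over all genes tested. A call was made for 67.7% of all genes tested. Lif, the cytokine, rose from 69, 46, and 40 counts in WT samples to 286, 234, and 253 counts in the Tnfaip2-/- EBs (log2 fold change 2.35, adjusted p = 1.42e-21 in edgeR's test). Pim1, a kinase gene induced by STAT3, rose by 0.75 on the log2 scale (adjusted p = 2.16e-19). Lifr, the receptor, fell by 0.93 (adjusted p = 3.81e-21). Stat3 itself was at 62.8 ± 1.49 CPM in WT EBs and 61.1 ± 1.23 CPM in Tnfaip2-/- EBs (SD, n = 3, adjusted p = 0.351 in edgeR's test). Klf4, a further STAT3 target of the naive network, fell by 1.49 (adjusted p = 6.81e-29), opposite to Tfcp2l1.

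Nr5a2 and Nr0b1 belong, with Esrrb, to the orphan nuclear receptors. NR5A2 and ESRRB read closely related DNA elements, and NR5A2 can drive Pou5f1. Nr0b1 encodes DAX1, an atypical receptor without a zinc finger DNA-binding domain that binds OCT4 and NR5A2 and mostly represses. Nr5a2 (ENSMUSG00000026398, chromosome 1, 136842571 to 136960448) was at 25.1, 24.0, and 26.9 CPM in the WT EBs and at 38.0, 35.0, and 38.5 CPM in the Tnfaip2-/- EBs. It varied more within a group than the other factors did, yet all Tnfaip2-/- samples were higher than all WT samples. The change was 0.55 on the log2 scale (SE 0.05, adjusted p = 6.83e-13 in edgeR's quasi-likelihood test).

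Nr0b1 (ENSMUSG00000025056, chromosome X, 86191764 to 86195947) changed most among the 9 factors. It was at 70.7, 68.8, and 65.7 CPM in the WT EBs and at 19.7, 20.9, and 21.7 CPM in the Tnfaip2-/- EBs. Each Tnfaip2-/- sample was at less than any WT sample by a wide margin, and the lowest WT sample was 3.03 times the highest of them. Nr0b1 fell by 1.72 on the log2 scale (SE 0.05, adjusted p = 1.78e-32 in edgeR's quasi-likelihood test and 6.34e-26 in the test against 1.5-fold). Of all genes tested, 1.51% had a larger fall. The 3 nuclear receptors of the network were thus split, with Nr5a2 higher and Esrrb and Nr0b1 lower.

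The tested genes whose profile over the 6 samples was most like that of Nr0b1, among 4941 genes with a mean within 2-fold of its own, were Sox1, Gli2, and Crabp1. Likeness was the Euclidean distance between log2 CPM profiles centred on their own mean, and the distances were 0.149, 0.169, and 0.183. Sox1 marks the neural plate, GLI2 is a transcription factor of the hedgehog pathway, and CRABP1 binds retinoic acid. Their log2 fold changes were -1.61, -1.61, and -1.77. With 2 groups, such a profile is mainly the difference between them.

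Zfp42 and Prdm14 encode zinc finger proteins. Zfp42 encodes REX1, a relative of YY1 that is dispensable for ESCs and is widely used as a reporter that is switched off on exit from the naive state. Zfp42 (ENSMUSG00000051176, chromosome 8, 43295063 to 43306980) was at 223.5, 223.7, and 239 CPM in the WT EBs. In the Tnfaip2-/- EBs it was at 428.5, 426, and 428.1 CPM. The Tnfaip2-/- samples were almost equal to each other, and the lowest of them was 1.78 times the highest WT sample. The change was 0.90 on the log2 scale (SE 0.03, adjusted p = 1.92e-31 in edgeR's quasi-likelihood test and 2.94e-15 in the test against 1.5-fold), a 1.87-fold rise. Of the 51-base windows of its exons, 8.31% also occur in a pseudogene, Zfp42-ps1, and uniquely mapped reads cannot cover them. For Nanog, 4.39% of the windows occur in other genes, among them its pseudogene Nanog-ps1. This pseudogene had between 78 and 93 counts in each sample (log2 fold change 0.13, adjusted p = 0.366 in edgeR's test).

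The promoter of Zfp42 is shown because it holds the most matches among the windows of the 9 factors. Its window (chr8:43306960-43307259, reverse strand, written 5′ to 3′ along the gene) contains the octamer ATGCAAAT, the classical OCT4 site, on the opposite strand as ATTTGCAT, 186 bases before the start. The POU letters TTTGCAT lie inside this match. The KLF element GGGTGTGG stands on the opposite strand as CCACACCC, 75 bases before the start.
Zfp42: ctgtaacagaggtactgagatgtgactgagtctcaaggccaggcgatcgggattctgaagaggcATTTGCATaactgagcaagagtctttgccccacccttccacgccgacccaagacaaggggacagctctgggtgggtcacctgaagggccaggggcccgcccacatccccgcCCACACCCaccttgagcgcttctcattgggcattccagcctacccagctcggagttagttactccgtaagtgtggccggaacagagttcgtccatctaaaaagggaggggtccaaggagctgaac
Of all windows, 1.74% held the octamer and 3.56% held the KLF element, and none of the other windows of the 9 factors held either. Of the genes that encode readers of these elements, Pou5f1 fell by 0.86 on the log2 scale (adjusted p = 1.6e-32 in edgeR's quasi-likelihood test). Klf2 rose by 0.98 (adjusted p = 4.66e-16), while Klf4 and Klf5 fell by 1.49 and 1.32 (adjusted p = 6.81e-29 and 9.1e-22). Their part in the level of Zfp42 was not tested.

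Prdm14 restrains fibroblast growth factor (FGF) signalling and the de novo DNA methyltransferase genes in ESCs, and it is needed for primordial germ cells. Prdm14 (ENSMUSG00000042414, chromosome 1, 13113457 to 13127163) was at 12.2, 11.7, and 11.4 CPM in the WT EBs and at 23.9, 25.0, and 23.2 CPM in the Tnfaip2-/- EBs. All Tnfaip2-/- samples were high, and the lowest was 1.9 times the highest WT sample. The change was 1.03 on the log2 scale (SE 0.06, adjusted p = 8.24e-19 in edgeR's quasi-likelihood test and 2.48e-08 in the test against 1.5-fold). This 2.04-fold rise was the largest among the 9 factors, and 7.14% of all genes tested rose more.

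Some genes of the routes that PRDM14 restrains were among the named genes of the formative and exit lists. Dnmt3b was at 598 ± 2.09 CPM in WT EBs and at 173 ± 4.57 CPM in Tnfaip2-/- EBs (SD, n = 3), and fell by 1.79 on the log2 scale (adjusted p = 7.6e-44 in edgeR's quasi-likelihood test). Dnmt3a fell by 2.12 (adjusted p = 8.25e-46). Of the FGF and ERK response genes, Dusp6 fell by 2.02 and Etv4 by 1.71 (adjusted p = 3.54e-39 and 2.96e-27), and Fgf5 fell by 0.43 (adjusted p = 1.17e-10). Etv5 and Spry4, further response genes of the exit list, fell less, by 0.23 and 0.25 (adjusted p = 3.83e-11 and 1.24e-06). No list of PRDM14 targets was examined, and whether Prdm14 had a part in these differences was not tested.

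Markers of primordial germ cells, where Prdm14 acts with Prdm1 and Tfap2c, moved with Prdm14. All 8 listed markers were tested: 7 were higher and 1, Dnd1, was lower, beside 34.0% and 33.7% of all genes tested. The median log2 fold change of the markers was 1.86. Their summed level was 77.5, 73.4, and 74.7 CPM in the WT EBs and 303, 297, and 300.1 CPM in the Tnfaip2-/- EBs. Tfap2c, the most abundant of them and a trophoblast marker as well, rose from 21.65 ± 1.07 CPM to 171 ± 1.65 CPM, by 2.98 on the log2 scale (adjusted p = 2.39e-45 in edgeR's test). Itgb3 rose by 3.13 on the log2 scale from 8, 15, and 15 counts (adjusted p = 2.18e-18). With 8 counts in WT replicate 1, Itgb3 did not pass the expression filter through the WT samples alone, which favoured a call as higher. No marker of the list was at 0 counts in a whole group, and the part of germ cell-like cells in the level of Prdm14 was not tested.

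Genes nearest in profile to Prdm14, among 4667 genes of similar mean level, were Gng12, Tes, and Epb41l4b, at distances of 0.0896, 0.0932, and 0.103. Gng12 encodes a subunit of G proteins, and the products of Tes and Epb41l4b are associated with the actin cytoskeleton. Their log2 fold changes were 0.95, 0.98, and 1.05.

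**Figure D2:**
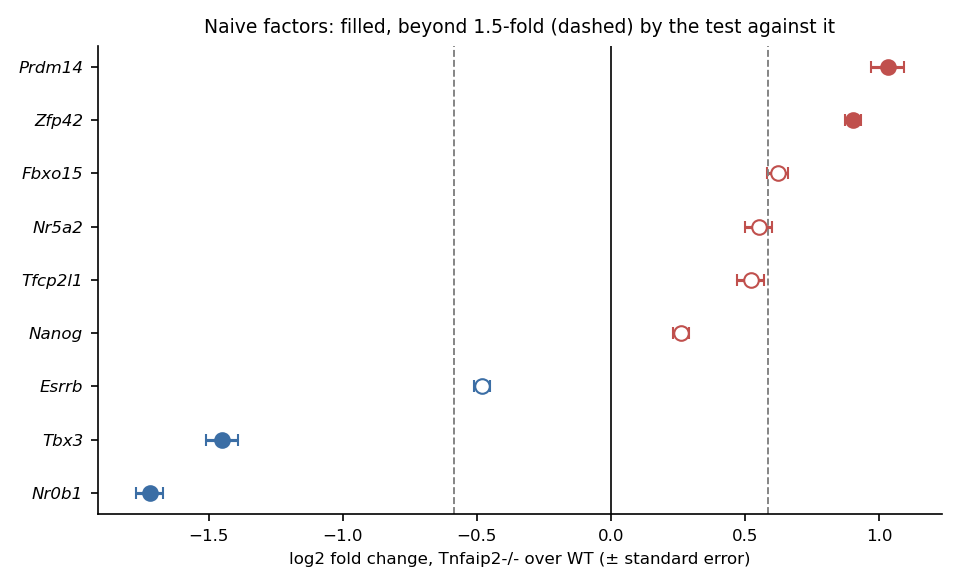
Log2 fold change of each naive factor (x axis, Tnfaip2-/- over WT, bars are the standard error of the fit), with dashed lines at a 1.5-fold change. Filled points passed the test against 1.5-fold: Prdm14 and Zfp42 to the right, Tbx3 and Nr0b1 to the left.

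Fbxo15, the member that is not a transcription factor, is a target of OCT4 and SOX2 and served as the selection marker in early reprogramming experiments. Fbxo15 (ENSMUSG00000034391, chromosome 18, 84934782 to 84981473) was at 57.8, 59.8, and 58.5 CPM in the WT EBs and at 89.2, 91.2, and 91.0 CPM in the Tnfaip2-/- EBs. The groups were tight and far apart, with the lowest Tnfaip2-/- sample at 1.49 times the highest WT sample. The change was 0.62 on the log2 scale (SE 0.04, adjusted p = 2.07e-20 in edgeR's quasi-likelihood test). At 1.54-fold it lay beyond 1.5-fold by estimate, but the test against that size gave an adjusted p of 0.239.

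Levels were compared between genes as CPM per kb of exon, since longer transcripts give more reads. In the WT EBs, Zfp42 (122 ± 4.75, SD, n = 3) and Nanog (115 ± 3.99) were the highest, and their sample ranges overlapped. Nr0b1 (37.8 ± 1.39) and Esrrb (37.2 ± 1.3) followed, again with overlapping ranges, and then Fbxo15 (17.5 ± 0.301). Tbx3 (4.97 ± 0.104), Prdm14 (4.59 ± 0.16), Nr5a2 (4.29 ± 0.25), and Tfcp2l1 (2.52 ± 0.0237) were lowest, and among these only the ranges of Prdm14 and Nr5a2 overlapped. Zfp42 and Nanog stood at percentiles 96.4 and 96.1 of all genes tested in WT EBs, and Tfcp2l1 at 38.6.

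In the Tnfaip2-/- EBs the order was different. Zfp42 (227 ± 0.833 CPM per kb) stood clear of Nanog (138 ± 3.29), and Fbxo15 (26.9 ± 0.321) had come level with Esrrb (26.7 ± 0.242), with overlapping ranges. Nr0b1 dropped to 11.5 ± 0.549 CPM per kb, and Tbx3, at 1.82 ± 0.0651, was last of the 9. In percentiles of all genes tested, Nr0b1 moved from 88.8 to 70.1 and Tbx3 from 51.7 to 32.1, while Prdm14 moved from 50.0 to 65.8. Esrrb stood at percentile 88.6 in WT EBs and 84.9 in Tnfaip2-/- EBs.

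**Figure D3:**
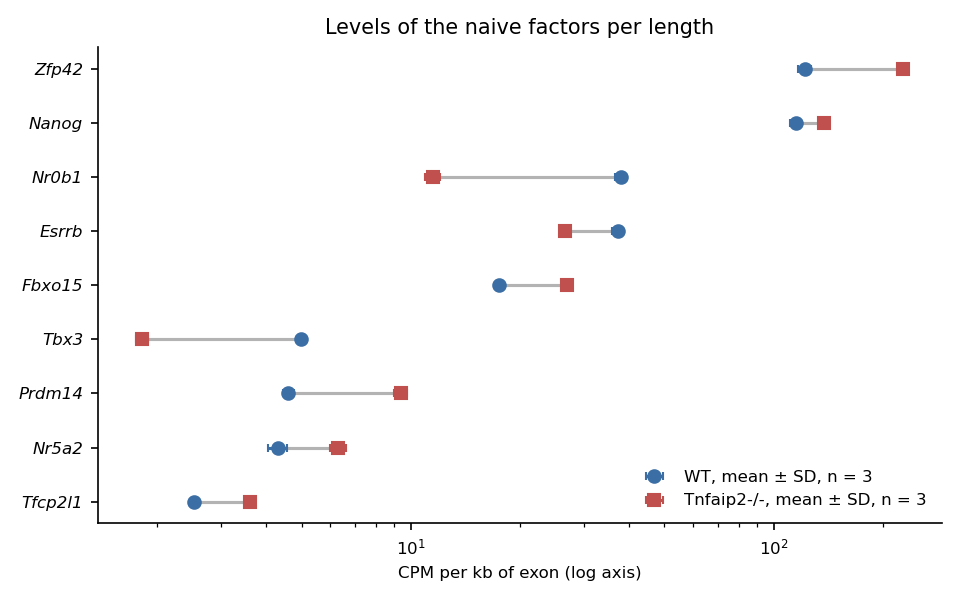
Mean level of each naive factor per length (x axis, CPM per kb of exon, log scale) in WT EBs (blue circles) and Tnfaip2-/- EBs (red squares), with SD over 3 samples and a grey line between the means. Zfp42 is highest in both groups, and Tbx3 is lowest in the Tnfaip2-/- EBs.

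The library share taken by the 9 factors together was larger in the Tnfaip2-/- EBs. Their summed level was 923.5, 932, and 941.6 CPM in the WT EBs and 1127, 1109, and 1113 CPM in the Tnfaip2-/- EBs. All Tnfaip2-/- samples were above all WT samples, with means of 932.4 ± 9.06 and 1117 ± 9.53 CPM. Per length, Zfp42 made up 35.2% of the summed level in WT EBs and 50.3% in Tnfaip2-/- EBs. Nanog made up 33.3% and 30.6%, Esrrb 10.8% and 5.91%, and Nr0b1 11.0% and 2.55%. From WT to Tnfaip2-/- EBs the mean of Zfp42 alone rose from 229 to 427 CPM, by more than the sum did.

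Genes around the 9 factors were described by lists, whose calls stand beside 67.7% of all genes tested, 34.0% higher and 33.7% lower. Of 8 core pluripotency genes, which are also active in the primed state, 2 were higher and 5 lower, with a median log2 fold change of -0.21. The fall of Utf1, by 0.06, was the weakest of these calls (adjusted p = 0.0465 in edgeR's test) and was lost in 7 of 13 alternatives. Pou5f1 counts were 17425, 16786, and 17869 in WT samples against 9563, 9282, and 9144 in Tnfaip2-/- samples. Sox2, the partner of OCT4, rose by 0.23 on the log2 scale (adjusted p = 6.12e-11 in edgeR's quasi-likelihood test). Foxd3, a forkhead factor, and Lin28a, which encodes an RNA-binding protein, fell by 2.65 and 1.05 (adjusted p = 9.15e-34 and 2.8e-34).

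Among 15 other genes of the naive state, 5 were higher and 9 lower, where 67.7% of all genes tested were called. Beyond 1.5-fold 3 were higher and 8 lower, against 9.05% and 6.63% of all genes tested. The median log2 fold change was -0.69, against 0.52 for the 9 factors. Dppa3, an epigenetic factor of oocytes and germ cells, was counted 104, 96, and 110 times in WT samples against 667, 645, and 614 times in Tnfaip2-/- samples (log2 fold change 2.67, adjusted p = 8.26e-32 in edgeR's quasi-likelihood test). Jam2, an adhesion molecule, and Tcl1, a co-activator of AKT, fell by 2.65 and 1.82 (adjusted p = 4.28e-32 and 3.42e-20). The 2 lists thus had medians of opposite sign, and each held genes that moved either way.

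WNT signals act on the network by relieving repression by TCF7L1, and Esrrb is a main target of this route. Of 10 genes of the WNT route, 3 were higher and 5 lower, where 67.7% of all genes tested were called. Their median of -0.04 turned to 0.06 under a filter at 1 CPM on average. Tcf7l1, the repressor, was at 96.2 ± 5.42 CPM in WT EBs and 105 ± 3.14 CPM in Tnfaip2-/- EBs (SD, n = 3), a log2 fold change of 0.12 (adjusted p = 0.00222 in edgeR's test), and the call was lost without WT replicate 3 (adjusted p = 0.108). The direct WNT target Sp5 fell by 2.80 (adjusted p = 1.95e-20), and Cdx1 went from 35, 43, and 44 counts to 0, 2, and 3 counts. Cdx1 passed the expression filter only through the WT samples, so its direction was fixed by being tested. Like Esrrb, Sp5 was lower, and whether the same route acts on both was not tested.

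Of 14 genes that drive or mark the exit from the naive state, 3 were higher and 8 lower, with a median log2 fold change of -0.24. Over all genes tested, 67.7% were called. The higher genes were Tcf7l1, Zfp281, and Jarid2. The call of Zfp281 was lost with DESeq2 (adjusted p = 0.135) and with other alternatives, and that of Tcf7l1 without WT replicate 3. Of 12 formative and primed genes 0 were higher and 11 were lower, with a median of -0.97. Otx2, the factor that directs enhancers in the formative state, was at 224 ± 2.25 and 223 ± 0.675 CPM (adjusted p = 0.786 in edgeR's test). The higher naive factors were therefore seen beside lower formative genes, but Esrrb, Tbx3, and Nr0b1 were lower together with them.

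**Figure D4:**
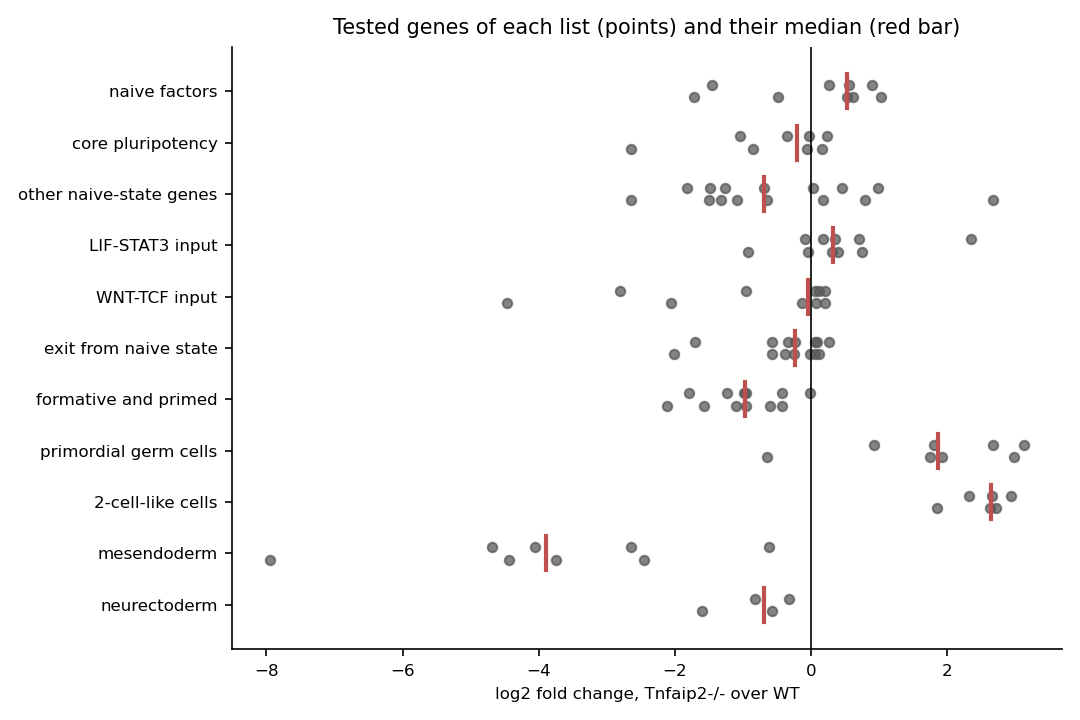
Log2 fold changes (x axis, Tnfaip2-/- over WT) of the tested genes of each list, 1 point per gene, with the median of the list as a red bar. The median is 0.52 for the naive factors, -0.69 for the other naive-state genes, and -0.97 for the formative and primed genes.

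Markers of other cell types were measured in the same samples. The summed level of 8 mesendoderm markers was 98.3, 99.2, and 96.7 CPM in the WT EBs and 21.8, 18.9, and 23.0 CPM in the Tnfaip2-/- EBs, with T as the most abundant gene in WT EBs (34.5 CPM, Eomes 28.3 CPM) and Eomes in Tnfaip2-/- EBs (18.4 CPM). All 8 were lower, where 33.7% of all genes tested were called lower, and none was at 0 in every sample of a group. Among them T, Mesp1, and Evx1 had at most 6 counts in each Tnfaip2-/- sample and passed the expression filter only through the WT samples. Their lower direction was thus fixed by being tested. Gsc had 4, 7, and 12 counts and Mixl1 17, 4, and 15 counts in the Tnfaip2-/- samples. Neither passed the filter in that group alone, which favoured a call as lower. Fgf8, a ligand of the primitive streak, had 325, 342, and 324 counts against 14, 12, and 11. In neurectoderm, 4 of 6 markers were tested and all 4 were lower, with a summed level of 115.1, 115.3, and 106.9 CPM in WT samples against 55.1, 53.0, and 54.3 CPM. Sox1, the most abundant of them, fell by 1.61 and Pax6, an eye and neural factor, by 0.82 on the log2 scale (adjusted p = 2.3e-31 and 3.07e-13 in edgeR's quasi-likelihood test). The higher naive factors thus coincided with lower lineage markers, and the lower factors Nr0b1, Tbx3, and Esrrb moved in the direction of the lineage markers. The part of cell composition in either was not tested.

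Primitive endoderm and trophoblast also express some of the 9 factors, among them Nr5a2, Esrrb, and Tbx3. Of 9 primitive endoderm markers 2 were higher and 4 lower, near the 67.7% of all genes tested that were called. Their median was -0.04, with a sign that depended on the processing. Their summed level was between 75.5 and 76.8 CPM in the WT EBs and between 68.6 and 70.7 CPM in the Tnfaip2-/- EBs. Dab2 was the most abundant of them. Gata6, the master regulator of primitive endoderm, had 99, 98, and 115 counts against 107, 108, and 120 (adjusted p = 0.288 in edgeR's test). Sox7 and Sox17, endoderm factors, rose by 0.64 and 0.45 on the log2 scale (adjusted p = 0.00126 and 0.0116), but the call of Sox17 was lost with DESeq2 (adjusted p = 0.117) and without WT replicate 3 or Tnfaip2-/- replicate 3. Foxa2 fell by 1.16 (adjusted p = 1.07e-06), and Afp went from 21, 16, and 25 counts to 1, 0, and 2. Afp passed the expression filter only through the WT samples, so its direction was fixed by being tested. Of 8 trophoblast markers 6 were tested, 3 higher and 2 lower, with a median of 0.56 that turned to -0.14 under a filter at 1 CPM on average. Their sum, from 70.6, 68.0, and 66.8 CPM in the WT EBs to 209, 202, and 209 CPM in the Tnfaip2-/- EBs, was mostly Tfap2c in the latter. Individual markers went either way: Cdx2 had 42, 37, and 28 counts against 1, 2, and 0, while Hand1 rose by 1.75 and Krt7 by 1.26 on the log2 scale from low levels (adjusted p = 4.42e-06 and 3.95e-05 in edgeR's test). Cdx2 passed the expression filter only through the WT samples and Hand1 only through the Tnfaip2-/- samples. Their directions were thus fixed by being tested. Krt7, with 13, 9, and 18 counts in WT samples, did not pass the filter in that group alone, which favoured a call as higher. Elf5 had at most 3 counts in any sample and was not tested.

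Genes of 2-cell-like cells, a rare state of naive cultures, were higher from a low base. Of 8 listed genes 7 were matched and 6 tested, and all 6 were higher, with a median of 2.64. Tcstv1, Tcstv3, and Usp17la had at most 9 counts in each WT sample and passed the expression filter only through the Tnfaip2-/- samples. The direction of these genes was thus fixed by being tested. Zscan4c, Zscan4d, and Zscan4f had at least 19 counts in each WT sample. Under a filter at 1 CPM on average 3 genes were called, and Tcstv1, Tcstv3, and Usp17la were too low to be tested. The summed level of the list was 3.7, 4.37, and 3.91 CPM in the WT EBs and 23.1, 24.6, and 24.1 CPM in the Tnfaip2-/- EBs. Zscan4f, the most abundant, rose by 2.72 (adjusted p = 1.31e-21 in edgeR's quasi-likelihood test), and Tcstv3 by 2.93 (adjusted p = 1.85e-09). These genes have near-identical copies, and their counts are uncertain. Their part in the levels of the naive factors was not tested.

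Relatives of the factors form a list that was added after the data were opened. Of 10 relatives 6 were tested, 3 higher and 3 lower, where 67.7% of all genes tested were called. They did not all move with their factors. Tbx2, with 15, 12, and 9 counts in WT samples, did not pass the expression filter in that group alone, which favoured a call as higher. The calls of Tbx2 (higher) and Ubp1 (lower) depended on the processing: that of Tbx2 was lost with DESeq2 (adjusted p = 0.109) and that of Ubp1 with upper-quartile factors (adjusted p = 0.0895). Esrra, the ubiquitous relative of Esrrb, rose by 0.33 on the log2 scale (adjusted p = 4.51e-06 in edgeR's quasi-likelihood test), where Esrrb fell. Tfcp2, the relative of Tfcp2l1, fell by 0.31 (adjusted p = 0.000163), where Tfcp2l1 rose. Yy1, the relative of Zfp42, fell by 0.17 (adjusted p = 2.82e-06), where Zfp42 rose. Prdm1, the germ cell relative of Prdm14, rose by 1.92 (adjusted p = 2.59e-23), as Prdm14 did. Nr5a1, the relative of Nr5a2, had at most 3 counts in any sample.

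Position was examined last, with neighbours and chromosomes chosen after the data were opened. The nearest tested protein-coding genes that do not overlap a factor, 1 on each side, gave 18 neighbours. Of these 16 were called, 8 higher and 8 lower, where 67.7% of all genes tested were called. With DESeq2, 4 of these calls were lost (Gpatch2l, Nek7, Socs6, and Zfp281). The test against 1.5-fold called 5 neighbours, where it called 15.7% of all genes tested. Among the 5 was Gm44, with 3, 0, and 2 counts in WT samples against 18, 21, and 19. Gm44 passed the expression filter only through the Tnfaip2-/- samples. In 11 cases a called neighbour had the direction of its factor and in 5 cases the opposite one. Nanog lies 77.2 kb from Dppa3 and 13.2 kb from Slc2a3, a glucose transporter gene that belongs to the same pluripotency gene cluster. Both rose more than Nanog did, by 2.67 and 0.76 on the log2 scale (adjusted p = 8.26e-32 and 3.2e-32 in edgeR's test). Tfcp2l1, in contrast, rose beside Gli2, 149 kb away, which fell by 1.61 (adjusted p = 1.75e-30), and Prdm14 rose 121 kb from Slco5a1, which fell by 1.39 (adjusted p = 1.01e-08). The neighbours of Zfp42, Triml2 at 101 kb and Fat1 at 1630 kb, rose by 0.50 and 0.55 (adjusted p = 1.08e-18 and 1.64e-22), less than Zfp42 itself.

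Whole chromosomes differed as well. The median log2 fold change of tested genes was -0.19 on chromosome 12, which carries Esrrb, and -0.21 on chromosome 5, which carries Tbx3. On these chromosomes 32.6% and 30.7% of the tested genes had an estimate above 0, against 59.5% on chromosome 1. It was -0.01 on chromosome 6 (Nanog), 0.08 on chromosome 1 (Tfcp2l1, Prdm14, and Nr5a2), 0.07 on chromosome 8 (Zfp42), 0.05 on chromosome X (Nr0b1), and 0.07 on chromosome 18 (Fbxo15). Each factor differed by more than the median of its chromosome. The part of the chromosome in the level of a factor was not tested.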

How the data were processed

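RNA of 6 EB samples was prepared with a kit that does not keep strand. The authors filtered the reads, mapped them to GRCm38 with TopHat2 2.1.0, counted uniquely mapped reads per gene with featureCounts 1.5.0 (versions from the submitters' processing notes) on the Ensembl annotation, and deposited raw counts without normalization. Counting without strand cannot separate overlapping antisense genes. Samples were grouped by the genotype in their labels.

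The analysis used R 4.3.3 and edgeR 4.0.16: TMM factors, the default expression filter (minimum count 10, minimum total 15), which kept 17849 genes, the robust quasi-likelihood test in its newer form, and Benjamini-Hochberg adjustment over all genes tested at 0.05. The filter can keep a gene through 1 group alone, such as Hand1 or Cdx2, and its call can then go in 1 direction only. The second rule tested against a fold change of 1.5 (glmTreat). CPM are counts per 1000000 of the TMM-scaled total. Per-length levels divide by summed exon length (GENCODE M21). Standard errors are approximate and follow from the size of the log2 fold change and the root of F, as their quotient. Of 52636 genes, 52489 matched the annotation, and Dux was not matched. Intervals cover counting error only. At the floor of 3 counts a gene has at most 0.138 CPM.

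The members and lists were chosen with earlier results of these data known. Named were all members, up to 4 genes per list (the 2 largest rises and falls beyond 1.5-fold), a fixed group of regulators, and the 3 nearest profiles of the factors with the largest rise and fall. Dnd1, Dab2, Eomes, Elf5, Krt7, Sox7, Sox17, Thy1, Col1a1, Lum, Etv5, Spry4, Utf1, Nanog-ps1, the relatives, and the neighbours were named after their values were seen. Profile distances used log2(CPM + 1).

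Alternatives were DESeq2 1.42.0 (on all genes with a count, and, added later, on the genes of the edgeR filter), RLE and upper-quartile factors, no filter or a mean of at least 1 CPM, the legacy fit, a replicate block, and leaving out each sample. The test was also run on simulated counts with known changes.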

Additional observations from a re-analysis of the deposited data

How the results depend on the processing

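Across 13 alternatives, each of the 9 factors kept its direction and its side of both call rules, and 9 of 9 were called throughout. The number of genes called lay between 10261 (DESeq2) and 12676 (no filter). The number beyond 1.5-fold moved to 1723 with DESeq2 on 30163 genes, in place of 2798. On the 17849 genes of the edgeR filter, an alternative added after the data were seen, DESeq2 called 10506 genes for any change and 1810 beyond 1.5-fold, with 9 and 4 factors. The ratio of Esrrb to Nanog, Tnfaip2-/- over WT, was 0.597, and between 0.576 and 0.609 with a sample left out.

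Replicate numbers do not pair the samples: same-numbered samples had correlations of -0.0562, -0.0541, and -0.0553 in their deviations from the group means, and no sample correlated best with its own number. With the number as a replicate block, 11841 genes were called in place of 12084, and 9 factors.

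For Tnfaip2 the log2 fold change was -2.13 with DESeq2, where the call was lost, and between -2.43 and -1.50 with a sample left out. With plain library totals the summed level in Tnfaip2-/- EBs was 1127 CPM in place of 1117 CPM.

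With the longest transcript as length, levels in WT EBs were 52.3 CPM per kb for Esrrb, 2.56 for Tfcp2l1, 6.61 for Tbx3, 5.35 for Nr5a2, and 23.2 for Fbxo15. In Tnfaip2-/- EBs they were 37.5 for Esrrb, 233 for Zfp42, 2.42 for Tbx3, 7.85 for Nr5a2, and 35.7 for Fbxo15. Esrrb then stood above Nr0b1 and Nr5a2 above Prdm14 in WT EBs, and Esrrb above Fbxo15 in Tnfaip2-/- EBs, so these places in the order depend on the length used.

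The medians of 4 lists changed sign. With a mean of at least 1 CPM the median became 0.06 in place of -0.04 for the WNT route and for primitive endoderm, -0.14 in place of 0.56 for trophoblast, and -0.08 in place of 0.12 for the relatives (a list added after the data were opened), since fewer genes were tested. The primitive endoderm median was between -0.11 and 0.02 with a sample left out. The number called moved at a mean of at least 1 CPM from 5 to 2 for trophoblast, from 6 to 3 for 2-cell-like cells, and from 2 to 1 for fibroblasts, and to 4 for fibroblasts without a filter. Among 77 other named genes, including those named after their values were seen, 36 of 992 values lost their call and 0 gained one. The sign changed for Clasp1, Otx2, and Col1a1, which were not called. Utf1 lost its call with DESeq2, upper-quartile factors, a mean of at least 1 CPM, the replicate block, and 3 of the samples left out. Among the neighbours, the calls of Gpatch2l, Nek7, Socs6, and Zfp281 were lost with DESeq2 and with other alternatives. The call of Tbx2 was also lost without WT replicate 3 and without Tnfaip2-/- replicate 2 (adjusted p = 0.0712 and 0.0743).

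The design sets the main limits: 1 line per genotype, 1 time point, bulk RNA, and no undifferentiated sample. Depth was not limiting for the factors, the least abundant of which had at least 263 counts in WT EBs, but it was for Tnfaip2.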
